A study of Homo sapiens with 2 samples.

Results

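The report covers 52 genes that build and run DNA replication origins and forks, out of 20289 genes in the deposited table. They were chosen by name, with earlier results of these data known, as genes of 13 complexes or steps. Not every subunit of each was included, and all 52 were found under their symbols. The study sequenced poly(A) RNA from MDA-MB-231, a human cell line grown from a triple-negative breast cancer. One library came from cells transfected with a negative control siRNA and 1 from cells transfected with an siRNA against the long non-coding RNA USP30-AS1, called the knockdown library below. No other genotype or drug is named in the labels, and neither dose nor harvest time is given there. No test could be run on 1 library per group, and every difference below is between 2 libraries, with no replicate behind it.

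A replication origin is prepared in G1, when the origin recognition complex, CDC6 and CDT1 load a double ring of the MCM2-7 helicase onto DNA. In S phase the kinases CDC7 and CDK help CDC45 and the GINS complex join MCM2-7, and the resulting CMG helicase opens the fork for the polymerases, the sliding clamp PCNA and its loader RFC. Most of these genes are targets of E2F transcription factors and are transcribed from late G1 into S phase, so in growing cancer cells their mRNAs are abundant and tend to vary together.

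The targeted RNA was not analysed here, and the values below therefore do not show how far the siRNA worked. The library totals were 23287817 (control) and 19569214 (knockdown) estimated counts, and a count of 0 allows up to 0.129 and 0.153 CPM (counts scaled to a common library size). The listed markers of the line were abundant, with VIM at 36576 and 43558 counts, while the hormone receptor genes ESR1 and PGR had 9 and 0 counts in the control. ERBB2 had 1270 and 1127 counts. The lists for red cells, leukocytes, endothelium and fibroblasts summed to between 2 and 334 counts per list in the control. In the knockdown library they summed to between 0 and 218. The highest genes of these lists were PECAM1 (226 and 128 counts), COL1A1 (170 and 213), CDH5 (91 and 8) and CD14 (40 and 42). CD3E, DCN, LUM, HBB, HBA2 and ALAS2 were among those with 0 in both libraries, as was the hormone receptor gene PGR. In bulk RNA, a different share of cells in S phase and a different amount of RNA per cell cannot be told apart.

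Of the 5 replication genes at least 1.5-fold higher in the knockdown library, the promoters are shown because these are the genes with the largest ratios. The strand of each gene is printed 5′ to 3′ from 100 bases before to 20 bases after the RefSeq start (GRCh38.p14), with any E2F word in capitals. An E2F word here is TTTCCCGC, TTTCGCGC, TTTGCCGC or TTTGGCGC on either strand, and these words do not overlap one another in the printed windows.

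GINS1 (chr20:25407573-25407692, plus strand): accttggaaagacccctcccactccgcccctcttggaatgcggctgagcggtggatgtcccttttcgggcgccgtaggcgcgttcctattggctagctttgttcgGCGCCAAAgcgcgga

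ORC1 (chr1:52404404-52404523, minus strand): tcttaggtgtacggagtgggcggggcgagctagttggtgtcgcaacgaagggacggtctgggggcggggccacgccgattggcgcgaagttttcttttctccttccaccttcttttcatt

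PCNA (chr20:5126603-5126722, minus strand): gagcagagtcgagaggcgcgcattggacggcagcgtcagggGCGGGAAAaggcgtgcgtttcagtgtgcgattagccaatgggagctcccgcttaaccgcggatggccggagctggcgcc

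CDC6 (chr17:40287779-40287898, plus strand): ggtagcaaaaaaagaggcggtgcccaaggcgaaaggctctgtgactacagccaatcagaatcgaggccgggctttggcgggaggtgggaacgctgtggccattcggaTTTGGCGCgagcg

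RFC3 (chr13:33818049-33818168, plus strand): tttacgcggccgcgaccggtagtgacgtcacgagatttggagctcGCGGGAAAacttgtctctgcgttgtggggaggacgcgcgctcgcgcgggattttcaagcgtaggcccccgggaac

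The E2F word starts at base 6 of the transcribed strand in GINS1 and at base 8 in CDC6, counted from 1 at the start. It lies at -59 in PCNA and at -55 in RFC3. None of the 4 words is in the promoter listed for ORC1 (250 bases before to 50 after the start), which says only that these letters are not in that window. A second PCNA promoter in the RefSeq table holds none either.

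Across the set, 46 of the 52 genes had a promoter in the table, and 26 of these 46 (56.5%) held an E2F word in at least 1 promoter. Among all genes with a promoter in the table the share was 1090 of 27305 (3.99%), and among the compared genes it was 652 of 9379 (6.95%). The word CCAAT on either strand was in 28 of the 46 (60.9%) and in 44.0% of the compared genes. Within the set, the median log2 ratio was 0.19 over the 26 genes with a word and 0.22 over the 20 without one, beside 0.03 over all 652 compared genes with a word. Of the genes at least 1.5-fold higher, 4 were among the 26 with a word (15.4%; 4.45% of compared genes with a word) and 1 was among the 20 without (5.0%; 5.63% of compared genes without one).

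The replication genes as a group lay slightly above the rest of the transcriptome in the knockdown library. The set was chosen with earlier results of these data known, so the shift is only a description of these 52 genes. The log2 ratio was taken between CPM values scaled by TMM, a normalization that sets the bulk of genes equal, with 0.5 CPM added to each, so a positive value is a higher level in the knockdown library. A gene was compared if its mean over both libraries was at least 50 counts, and all 52 passed, with counts from 163 (E2F2) to 8505 (MCM7) in the control. Of the 52, 40 had a log2 ratio above 0, where 49.6% of all 11530 compared genes did, and 12 had one below 0, where 50.4% did. The median log2 ratio was 0.22, and the median of all compared genes was -0.00.

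The shift was made of many small differences. The quartiles of the 52 ratios were 0.04 and 0.41, and 29 of 52 genes had a log2 ratio above 0.2 (26.9% of all compared genes) while 6 had one below -0.2 (27.8%). At 1.5-fold, 5 genes were higher, or 9.62%, against 6.10% of all compared genes, and 0 were lower, against 7.04%. At 2-fold, 1 was higher (1.55% of all) and 0 were lower (1.60% of all). The share at least 1.5-fold higher is thus near the background, and the median carries more of the shift than large ratios do. Without GINS1 the median was 0.21.

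**Figure D1:**
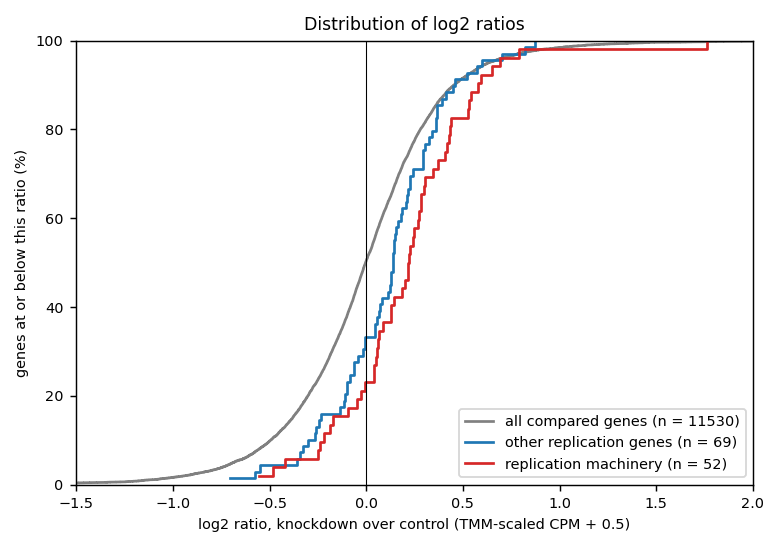
Cumulative share of genes (vertical axis, %) at or below each log2 ratio of knockdown over control (horizontal axis) for the 52 replication genes, the 69 other replication genes described at the end, and all 11530 compared genes. The curve of the 52 genes lies to the right of the curve of all genes over most of its range, with medians of 0.22 and -0.00, and its upper end is the single point of GINS1 at 1.76.

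The 52 genes together held 91037 (control) and 85539 (knockdown) counts. That was 0.391% (95% Wilson interval 0.388 to 0.394) and 0.437% (0.434 to 0.440) of the library. These intervals, and those on folds below, cover counting error only and say nothing of the spread between cultures. By the counting interval alone, 33 of the 52 lay above and 8 below a fold of 1, against 33.0% and 31.5% of all compared genes, and the interval of the other 11 included 1. Listed proliferation markers outside the set went the same way except one: CDK1, CCNB1, BUB1 and TOP2A had log2 ratios of 0.24 (CCNB1) to 0.36 (TOP2A), while MKI67 had 16465 and 12416 counts and a log2 ratio of -0.11. The part of cell cycle distribution in the replication gene values was not tested.

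**Figure D2:**
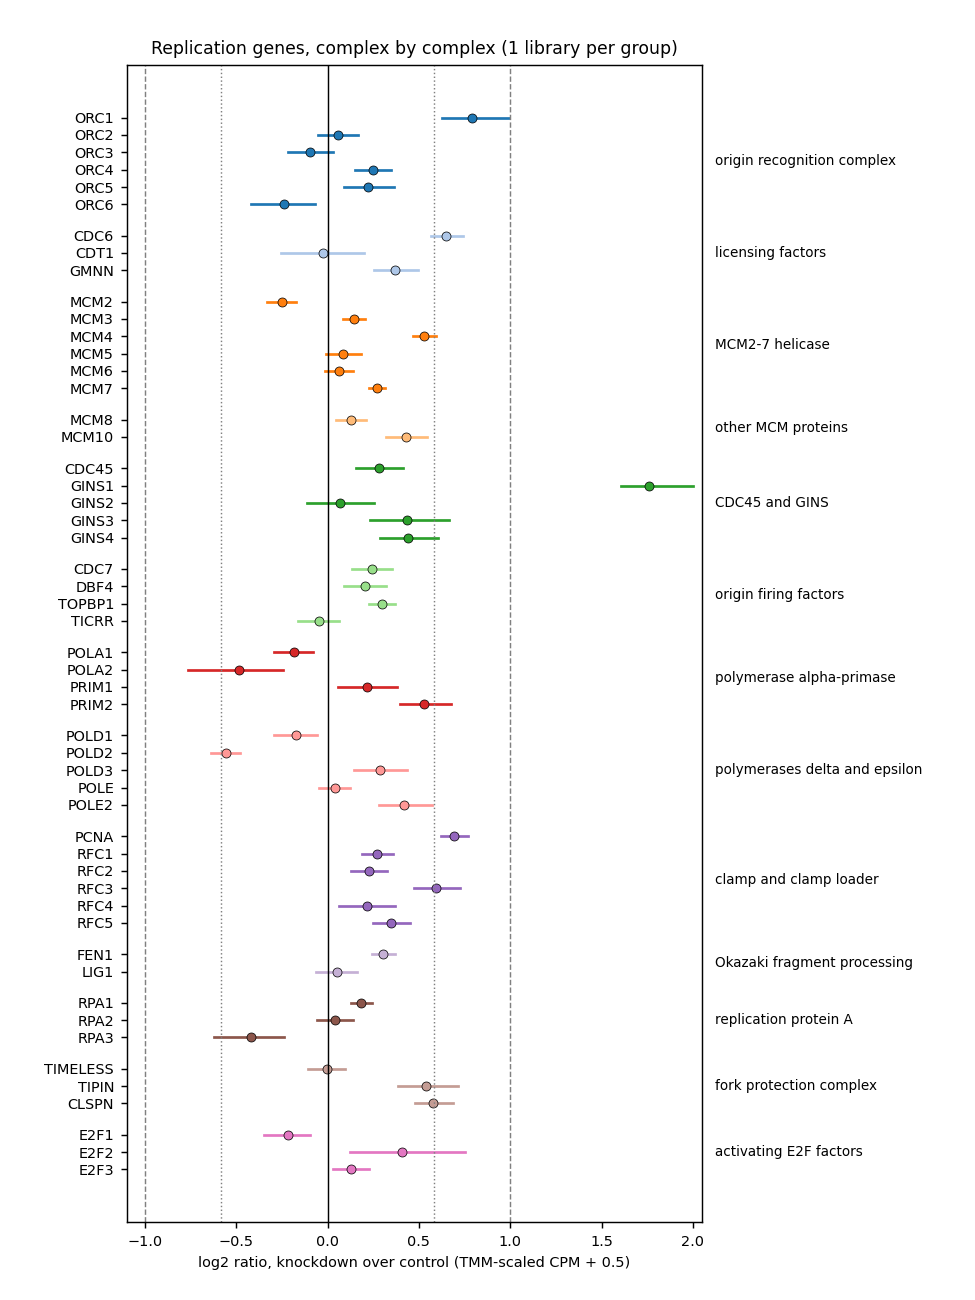
Log2 ratio of knockdown over control (horizontal axis) for each of the 52 genes, grouped by complex, with 95% exact counting intervals as lines, dotted lines at 1.5-fold and dashed lines at 2-fold. GINS1 stands alone beyond 2-fold at 1.76, and POLD2 has the lowest ratio at -0.56. All 6 clamp and clamp loader genes lie above 0, where 49.6% of all compared genes do.

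The largest difference was in GINS1, which encodes the PSF1 subunit of GINS, the 4-subunit complex that ties CDC45 to MCM2-7. GINS1 (chr20:25407727-25452628, plus strand, GRCh38) had 291 (control) and 824 (knockdown) counts. In FPKM, a level per transcript length and library size, it had 3.77 and 12.7. Although the knockdown library was the smaller one, its count was the higher. The level was 3.49-fold higher (95% exact Clopper-Pearson counting interval 3.05 to 4.0; log2 ratio 1.76), which ranked 25 of 11530 compared genes.

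The other 3 GINS genes differed far less, and their intervals did not overlap that of GINS1. GINS2 had 536 and 457 counts, 1.05-fold higher (0.924 to 1.19). GINS3 had 333 and 369 counts, 1.36-fold higher (1.17 to 1.59), and GINS4 had 615 and 681, also 1.36-fold higher (1.22 to 1.52). Both GINS3 and GINS4 share exon bases with antisense transcripts (10.9% for GINS3 and 21.2% for GINS4 with the largest overlap), and whether the authors counted by strand is not stated in the sources used here. CDC45, the partner of GINS in the CMG helicase, had 1001 and 991 counts and was 1.22-fold higher (1.12 to 1.33).

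The 4 GINS proteins are present in equal number in the complex, so their mRNA levels per length can be set side by side. In the control library GINS1 had the lowest level of the 4 at 3.77 FPKM, below GINS3 (6.82), GINS2 (8.76) and GINS4 (8.81). In the knockdown library it had the highest at 12.7 FPKM, above GINS4 (11.5), GINS2 (8.89) and GINS3 (8.88). The order of the other 3 was the same in both libraries, although GINS4 and GINS2 in the control, and GINS2 and GINS3 in the knockdown library, differed by less than 0.1 FPKM.

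**Figure D3:**
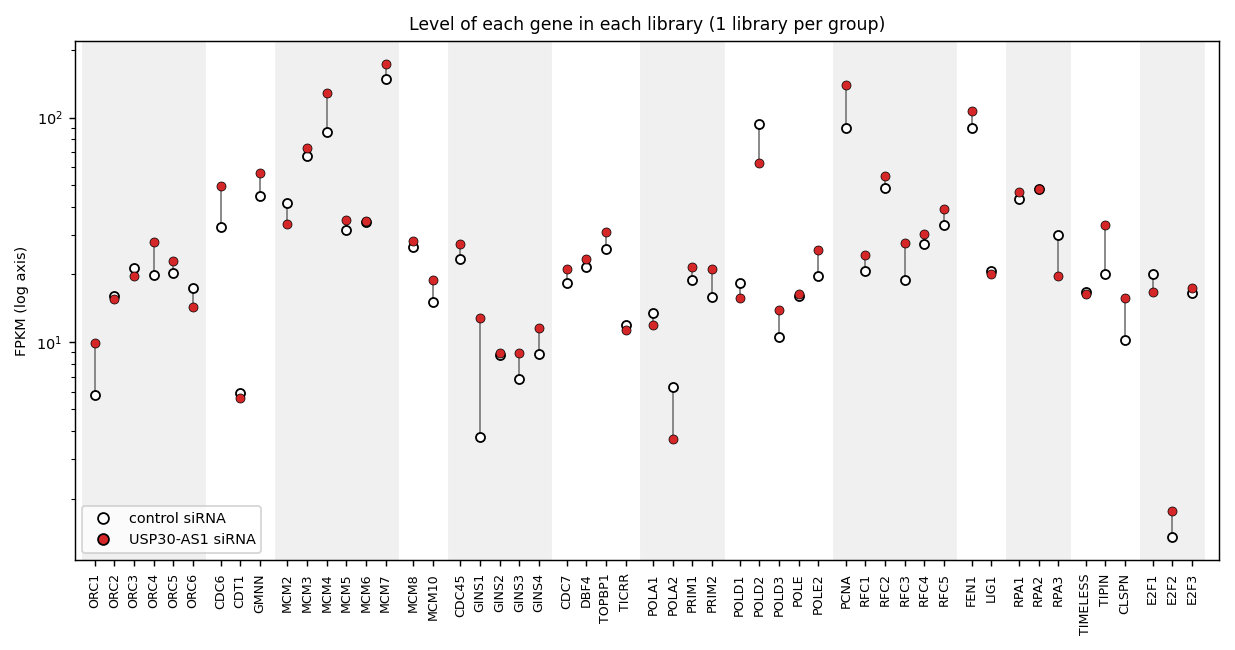
FPKM on a log axis for each of the 52 genes in the control library (open points) and the knockdown library (filled points), with shading that separates the complexes. GINS1 moves from 3.77 to 12.7 FPKM and crosses the other GINS genes, whereas MCM7 stays the most abundant gene at 149 and 173 FPKM.

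GINS1 also carries in its 3′ UTR a word of 7 bases that an earlier look at these same data had picked for being common in transcripts that were higher in the knockdown library. Since the word was picked on these values, its presence supports nothing about them, and the sites are printed to show where they lie. The high word is CCTAAGA or CTAAGAA and the corresponding low word, picked for lower transcripts, is AACTCCA or ACTCCAA. Words are in capitals, read from the GENCODE release 29 transcript.

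GINS1 3′ UTR: ataaCTAAGAAtacttggCTAAGAAgtat

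RFC3 3′ UTR, first site: ctttagagtCTAAGAAaatgatctt

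RFC3 3′ UTR, second site: aggtcggtaCTAAGAAataagcatg

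GINS3 3′ UTR: ctcggagagCCTAAGAgcacccgca

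GINS2 3′ UTR: tatttttttCCTAAGAgaaaattac

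RPA3 3′ UTR: agaattgctACTCCAAtatatggtc

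The 2 copies in GINS1 start at bases 121 and 135 of a 3′ UTR of 2564 bases. RFC3 holds its copies at bases 219 and 574 of 1201. In all, 7 of the 52 genes held the high word (13.5%; 17.0% of compared genes with a 3′ UTR) and 6 held the low word (11.5%; 16.7%), with POLD3 in both counts. The 6 genes with the high word alone were GINS1, RFC3, GINS3, GINS2, TIMELESS and ORC6, and their log2 ratios ran from -0.24 (ORC6) to 1.76 (GINS1). The 5 with the low word alone were ORC3, MCM8, POLA1, RFC2 and RPA3, with ratios of -0.42 (RPA3) to 0.22 (RFC2). Of the 1941 compared genes with the high word, 7 besides GINS1 had a ratio at least as high as GINS1. Among all 11530 compared genes, 24 besides GINS1 did. The 40 replication genes with neither word had a median log2 ratio of 0.23, and 3 of these, ORC1, PCNA and CDC6, were at least 1.5-fold higher.

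In the origin recognition complex, which marks origins and stays bound as a platform for loading, the subunits went different ways. ORC1, the subunit whose level is known to cycle in human cells, had 422 and 600 counts and was 1.75-fold higher (1.54 to 1.99; log2 ratio 0.79), the second largest ratio of the 52. ORC4 (1717 and 1657 counts) and ORC5 (901 and 856) were 1.19-fold (1.11 to 1.27) and 1.17-fold higher (1.06 to 1.29). ORC6, a subunit less tightly bound to the others, had 657 and 451 counts and was 1.18-fold lower (1.05 to 1.34). The intervals of ORC2 (log2 ratio 0.06) and ORC3 (-0.09) included a fold of 1, and ORC2 was at -0.03 in FPKM. Per length, ORC1 had the lowest level of the 6 in both libraries, at 5.81 and 9.84 FPKM, with the others between 14.3 and 27.7. The deposited FPKM of ORC4 moved more than its counts, from 19.8 to 27.7 (log2 ratio 0.48 against 0.25 in counts). Its counts were not whole numbers, so the authors' counting shared some of its reads.

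Among the licensing factors, CDC6, the ATPase that works with ORC to load the helicase, had 1870 and 2389 counts and was 1.57-fold higher (1.48 to 1.67). CDT1, which brings MCM2-7 to ORC, did not follow it. It had 366 and 292 counts, a fold of 0.982 (0.839 to 1.15), and its log2 ratio was -0.03, or 0.06 after a trend on GC content and length was removed. GMNN, encoding geminin, the inhibitor that binds CDT1 after licensing, had 1121 and 1180 counts and was 1.3-fold higher (1.19 to 1.41). In FPKM the control library held 44.6 for GMNN, 32.6 for CDC6 and 5.90 for CDT1. The knockdown library held 56.6, 49.7 and 5.60 in the same order of genes, so the ratio of the highest to the lowest of the 3 went from 7.56 to 10.1.

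The helicase core MCM2-7, a ring of 6 related ATPases, was the most abundant complex of the set, with 25367 and 23624 counts summed. Its median log2 ratio was 0.11, and 5 of 6 genes lay above 0 (49.6% of all compared genes). MCM4 had 3909 and 4587 counts and was 1.44-fold higher (1.38 to 1.51), and MCM7 had 8505 and 8339 and was 1.21-fold higher (1.17 to 1.24). MCM3 had 4757 and 4267 counts and was 1.10-fold higher (1.06 to 1.15). MCM5 (log2 ratio 0.09) and MCM6 (0.06) had intervals that included a fold of 1.

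MCM2 was the exception, at 3285 and 2240 counts, or 1.19-fold lower (1.13 to 1.26), and its interval overlapped none of the other 5. It shares 22.7% of its exon bases with an antisense transcript. Although the 6 proteins act in equal number, the mRNA levels per length were unequal, from 31.5 (MCM5) to 149 FPKM (MCM7) in the control and from 33.6 (MCM2) to 173 FPKM (MCM7) in the knockdown library. MCM2 ranked 4 of 6 in the control and last in the knockdown library, and MCM7, MCM4 and MCM3 kept the first 3 places. The last places in the knockdown library were close, with MCM2 at 33.6, MCM6 at 34.7 and MCM5 at 35.1 FPKM.

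Of the MCM proteins outside the ring, MCM10, which activates the assembled CMG helicase, had 1247 and 1368 counts and was 1.35-fold higher (1.25 to 1.46). MCM8, which acts with MCM9 in repair of DNA breaks, had 2660 and 2363 counts and was 1.09-fold higher (1.03 to 1.16).

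The factors that fire origins were close to one another. The kinase CDC7 (1381 and 1329 counts) and its activating subunit DBF4 (1269 and 1188) were 1.18-fold (1.10 to 1.28) and 1.15-fold higher (1.06 to 1.25). TOPBP1, a scaffold that helps recruit CDC45 and also activates the ATR checkpoint kinase, had 3165 and 3163 counts and was 1.23-fold higher (1.17 to 1.29). TICRR, known as Treslin, which works with TOPBP1, had 1534 and 1204 counts and a log2 ratio of -0.05, with an interval that included a fold of 1. Its ratio was 0.04 after the GC and length trend was removed.

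The polymerase genes did not share a direction. Polymerase alpha-primase starts each new strand, and its 4 subunits split into a higher and a lower pair. The primase genes PRIM1 and PRIM2 had 636 and 601 and 784 and 922 counts, and were 1.16-fold (1.04 to 1.3) and 1.45-fold higher (1.31 to 1.59). The catalytic polymerase gene POLA1 had 1657 and 1183 counts and was 1.14-fold lower (1.06 to 1.23). Its accessory gene POLA2 had 342 and 196 counts and was 1.42-fold lower (1.19 to 1.70). In FPKM POLA2 was lower still, from 6.32 to 3.70 (log2 ratio -0.77 against -0.48 in counts), which would pass the 1.5-fold mark. POLA2 shares 35.1% of its exon bases with another annotated protein-coding gene on the same strand and had counts that were not whole, so its ratio is uncertain. The ratio of PRIM1 has a like limit. It shares 14.85% of its exon bases with such a gene, and its control count was not whole.

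Polymerase delta extends the lagging strand and polymerase epsilon the leading strand. POLD2, the small subunit that joins the catalytic subunit of polymerase delta to the rest, had 3474 and 1915 counts and was 1.47-fold lower (1.39 to 1.56; log2 ratio -0.56), the lowest ratio of the 52 in scaled counts. In FPKM its log2 ratio was -0.58, and POLA2 (-0.77) and RPA3 (-0.61) lay below it. It stayed the most abundant polymerase gene, at 93.7 and 62.7 FPKM. The catalytic gene POLD1 had 1407 and 1013 counts and was 1.13-fold lower (1.04 to 1.22), whereas POLD3, an accessory subunit that contacts PCNA, had 768 and 762 counts and was 1.22-fold higher (1.10 to 1.35). POLE, the catalytic gene of polymerase epsilon, had 2499 and 2086 counts and a log2 ratio of 0.04, which was -0.01 with library totals only and 0.18 after the GC and length trend was removed. Its partner POLE2 had 747 and 815 and was 1.34-fold higher (1.21 to 1.49). The highest level of the 5 genes was 8.96 times the lowest in the control library and 4.53 times in the other. These 5 genes are not every subunit of the polymerases, and POLD4 is among the other replication genes below.

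Every gene of the clamp and its loader was higher, with a median log2 ratio of 0.31. All 6 log2 ratios were at 0.21 or above, where 26.9% of all compared genes lay above 0.2. In FPKM 4 of the 6 lay above 0.2 (24.4% of all compared genes). The 5 genes of CDC45 and GINS were also all above 0, where 49.6% of all compared genes were. PCNA, the sliding clamp that holds polymerases on DNA, had 2663 and 3504 counts and was 1.62-fold higher (1.54 to 1.70), with 89.4 and 140.1 FPKM. RFC3, a small subunit of the clamp loader, had 942 and 1158 counts and was 1.51-fold higher (1.39 to 1.65). Its log2 ratio of 0.59 sits at the 1.5-fold mark of 0.585, and was 0.54 in FPKM and with library totals only, 0.58 with upper-quartile scaling and 0.50 after the GC and length trend was removed.

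The other loader subunits RFC1, RFC2, RFC4 and RFC5 were between 1.16-fold (RFC4) and 1.27-fold (RFC5) higher. RFC1, the large subunit, had 2329 and 2284 counts and RFC2 had 1676 and 1593. RFC4 had 718 and 678 counts and RFC5 had 1526 and 1580. The interval of PCNA overlapped only that of RFC3 within this group. All 6 ratios stayed above 0 under every scaling, unit and floor tried and after the GC and length trend was removed, where the lowest was 0.16.

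Downstream of the clamp, FEN1, the nuclease that trims Okazaki fragments, had 4197 and 4211 counts and was 1.24-fold higher (1.18 to 1.29). LIG1, the ligase that seals them, had 1430 and 1202 counts and a log2 ratio of 0.05, which was -0.04 in FPKM. Replication protein A coats single-stranded DNA as a trimer. Its large subunit RPA1 had 4715 and 4355 counts and was 1.14-fold higher (1.09 to 1.19), RPA2 had 1768 and 1477 and a log2 ratio of 0.04 (0.00 in FPKM), and the small subunit RPA3 had 608 and 367 and was 1.35-fold lower (1.18 to 1.54). In FPKM RPA3 went from 29.97 to 19.7 and was past 1.5-fold lower (log2 ratio -0.61).

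The fork protection complex steadies the fork and passes stress signals to the checkpoint. CLSPN, encoding the checkpoint mediator claspin, had 1351 and 1644 counts and was 1.5-fold higher after rounding (1.39 to 1.61), with a log2 ratio of 0.58 that lies just under the mark. It passed the mark with DESeq2 size factors (0.59) and in FPKM (0.61). TIPIN had 562 and 668 counts and was 1.46-fold higher (1.31 to 1.64). Its direct partner TIMELESS had 1828 and 1479 counts and a log2 ratio of -0.01, which was 0.00 with DESeq2 size factors and 0.05 after the GC and length trend was removed. Within this trio the TIMELESS interval of 0.929 to 1.07 overlapped neither of the others. TIPIN shares 21.0% of its exon bases with a ribosomal protein pseudogene on the same strand, and its FPKM moved more than its counts (log2 ratio 0.74 against 0.54), past the 1.5-fold mark.

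Of the 3 activating E2F factors, which drive transcription of many of the genes above, E2F2 and E2F3 were higher and E2F1 was lower. Their median log2 ratio was 0.13. With a floor of 200 counts E2F2 dropped out, and the median was -0.045. E2F1 had 1260 and 879 counts and was 1.16-fold lower (1.07 to 1.27). E2F2, the least abundant gene of the set at 1.35 and 1.76 FPKM, had 163 counts in the control and was 1.35-fold higher (1.09 to 1.68). E2F3 had 1768 and 1570 counts and was 1.09-fold higher (1.02 to 1.17), so that it passed E2F1 in FPKM (17.4 against 16.7 in the knockdown library, 16.6 against 20.1 in the control).

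Transcript base composition moved with the ratios. All compared genes were ordered by GC content and divided into 3 equal bands. Of the 11 replication genes in the upper band (over 53.9%), 5 were above 0 (44.4% of all compared genes in that band) and the median log2 ratio was -0.03. Of the 21 genes in the middle band, 17 were above 0 (49.1% of all) and the median was 0.22. Of the 20 genes in the lower band (44.1% or less), 18 were above 0 (55.5% of all) and the median was 0.26. The medians of all compared genes were -0.05, -0.01 and 0.05 in the upper, middle and lower bands. Spearman's rho between GC content and log2 ratio was -0.37 across the 52 genes and -0.12 across 11510 compared genes, given as descriptions of 2 libraries that also differ in depth. After a trend on GC content and transcript length over all compared genes was taken off, the median of the set was 0.17. In the set 43 of 52 lay above 0, against 50.5% of all 11510 compared genes. Spearman's rho with GC content across the 52 genes was still -0.23 after the trend was taken off. GINS1 was then at 1.71, PCNA at 0.63 and POLD2 at -0.53.

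**Figure D4:**
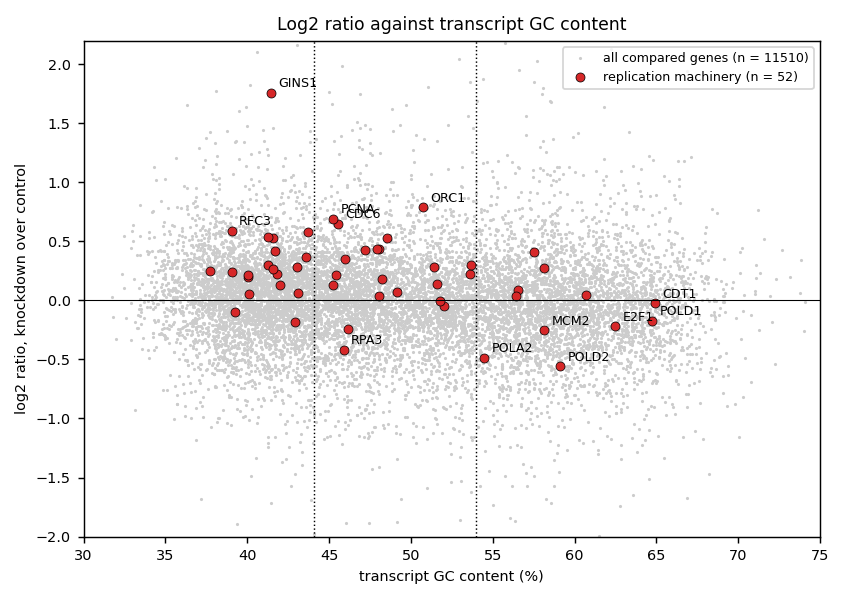
Log2 ratio of knockdown over control (vertical axis) against transcript GC content (horizontal axis, %) for the 52 replication genes and all 11510 compared genes with a transcript, of which 16 lie outside the plotted range. Dotted lines at 44.1% and 53.9% split the compared genes into 3 equal bands, and the replication genes have a median of 0.26 in the lower and -0.03 in the upper band.

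Other replication genes, in 5 lists chosen with earlier results of these data known, were also more often above 0 than below. The 12 compared genes of the deposited DNA replication pathway outside the 52 were not, with 6 above 0. The difference of either group from the 52 was not tested. Of 69 other replication genes in 5 lists, 46 lay above 0 (49.6% of all compared genes), with a median log2 ratio of 0.14. At least 1.5-fold higher were 4 (5.80%; 6.10% of all compared genes), at least 1.5-fold lower was 1 (7.04% of all), and none reached 2-fold. Fork accessory factors had a median of 0.14, with 15 of 22 above 0. ATAD5, which unloads PCNA, had 526 and 652 counts and was 1.53-fold higher (1.36 to 1.71), and ZRANB3, a translocase that remodels stalled forks and binds PCNA, had 204 and 108 counts and was 1.53-fold lower (1.21 to 1.96), with a log2 ratio of -0.58 that stays just short of the mark because of the added 0.5 CPM. POLD4, the smallest polymerase delta subunit, and TOP2A, a topoisomerase, had log2 ratios of 0.52 and 0.36.

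Licensing and firing control also had a median of 0.14, with 12 of 17 above 0 (49.6% of all compared genes). CCNE2, encoding cyclin E2, which activates CDK2 at the start of S phase, had 427 and 643 counts and was 1.85-fold higher (1.64 to 2.10), while its paralogue CCNE1 had 441 and 281 counts and a log2 ratio of -0.34. CCNE1 was named after its value was seen. CCNA2, RIF1 and USP37 had log2 ratios of 0.45, 0.39 and 0.36.

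In the list of RB and other E2F family genes 7 of 14 lay above 0, near the 49.6% of all compared genes, and the median was 0.05. The largest ratios were those of E2F7 and E2F8, E2F factors that repress transcription. E2F7 had 1292 and 1864 counts and was 1.78-fold higher (1.65 to 1.91), and E2F8 had 528 and 703 and was 1.64-fold higher (1.46 to 1.84). The pocket proteins RBL2 and RBL1, which hold E2F targets down, were lower, RBL2 at 1946 and 968 counts (1.63-fold lower, 1.51 to 1.77) and RBL1 at 1376 and 871 (1.28-fold lower, 1.18 to 1.40).

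Replication-coupled chromatin assembly genes had a median of 0.14 with 7 of 9 above 0 (49.6% of all compared genes). The histone chaperone ASF1B had 1551 and 857 counts and was 1.47-fold lower (1.35 to 1.60), and its paralogue ASF1A had a log2 ratio of 0.34. MMS22L and CHAF1A were at 0.46 and 0.41, but MMS22L was at 0.13 in FPKM. S-phase nucleotide supply genes had a median of 0.22 with 5 of 7 above 0. RRM2, the regulated subunit of ribonucleotide reductase, had 4796 and 5808 counts and was 1.49-fold higher (1.43 to 1.55), and RRM1 and DCK were at 0.36 each. In the DNA replication pathway of the deposited annotation, 38 genes were compared, of which 26 belong to the 52. The 12 that do not had a median of -0.02, and 6 of them lay above 0.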

How the data were processed

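Poly(A) RNA was measured in 1 control and 1 knockdown library. Per the submitters' processing notes, RSEM, StringTie 1.3.1, HISAT2 and fastp 0.18.0 were used with the build GRCh38. The role of each, the annotation release and the strand setting are not given in the sources used here. Deposited values are estimated counts per gene without normalization and FPKM, normalized by the authors for length and depth, per the file headers. The authors' deposited log2 fold change, p-value and FDR were not used, since no replicate entered them. The columns are named Si-NC and Si-179. Si-NC matches the control label and the other column was taken as the knockdown library because the table is titled for that comparison.

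Estimated counts were rounded and scaled by TMM factors of 1.017 and 0.983 (edgeR 4.0.16, R 4.3.3). DESeq2 1.42.0 gave size factors for an alternative. Folds were taken without the added 0.5 CPM and carry 95% exact (Clopper-Pearson) intervals, shares of a library carry Wilson intervals, and both cover counting error only. Rows with a gene identifier but no symbol (583, 2.87% of rows) stayed in the totals. The ratio rule and intervals were tested on simulated counts that held counting error only. That test says nothing of the spread between cultures. Locations, 3′ UTRs, GC content and exon overlaps came from GENCODE release 29 (GRCh38), which held 20171 of the 20289 identifiers, and promoters came from RefSeq (GRCh38.p14). The trend on GC content and log length was a cubic in each, with their product, fitted over all compared genes. Scripts ran in Python 3.11.15 with scipy 1.17.1, matplotlib 3.10.9, pandas 2.3.3 and numpy 2.4.6.

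The 52 genes, their grouping, the lists of other genes and the 3′ UTR words were chosen with earlier results of these data known. All 52 are described. Of each list of other genes, up to 4 with the largest ratios in size were named. Some genes that the rule would name are not reported here.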

Additional observations from a re-analysis of the deposited data

How the results depend on the processing

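No paired analysis was possible because each group has 1 library, and for the same reason no library could be left out. The median of the 52 genes ran from 0.17 (library totals only, or GC and length trend removed) to 0.23 (DESeq2 size factors, and without the 12 genes that hold either 3′ UTR word), and it stayed above 0 in every setting. The median of all compared genes also moved with the setting. It was -0.05 with library totals only, -0.04 in FPKM, 0.00 with the trend removed and 0.01 with DESeq2 size factors. Scaling by totals, DESeq2 or upper quartile, other floors, other pseudocounts, FPKM and the GC trend left GINS1 as the 1 gene past 2-fold. The number at least 1.5-fold higher ran from 3 without the genes with either word, a setting added after seeing the data that has fewer genes, to 6 with DESeq2 size factors or FPKM. The number at least 1.5-fold lower, 0 as reported, was 1 with library totals only, where all ratios fall. In FPKM it was 2 (POLA2 and RPA3), beside 1060 of all 11530 compared genes, and the cause was not tested. Leaving out the 22 genes that share exon bases with another gene, also added after seeing the data, kept the median at 0.22. The number 1.5-fold higher stayed at 5, then of 30 genes (16.7%), beside 6.10% of all compared genes. Shared exon bases were looked up for the 52 genes only, so the 6.10% is of genes without that filter.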
